A study of Mus musculus with 6 samples.

Results

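Lactate is released and burned by muscle and ketone bodies are burned by it, and 7 genes of their use were followed in muscle of stimulated and control mice that the labels give as triceps. They are *Ldha* and *Ldhb*, the subunits of lactate dehydrogenase, *Slc16a1* and *Slc16a3*, the monocarboxylate transporters MCT1 and MCT4, *Bsg*, the membrane protein basigin that brings these transporters to the cell surface, and *Bdh1* and *Oxct1*, enzymes of ketone body breakdown. The genes were chosen by name, as probe sets whose symbol in the platform annotation is one of the 7. Each of the 7 had 1 probe set, out of 22206 probe sets covering 19505 genes. The u40Hz-stimulation group comprised 3 male SAMP-10 mice (mice 4, 10 and 11) given continuous vibration and inaudible sound at 40 Hz for 5 weeks, and the control group comprised 3 male SAMP-10 mice (mice 1, 6 and 8) without stimulation. All 6 mice were of the senescence-accelerated SAMP-10 strain, on a normal diet under a light cycle of 12 h, and were about 31 weeks old after the stimulation. No mice of a strain that ages normally were included. In the study as a whole the groups held 11 stimulated and 12 control mice. How the 3 mice per group for the arrays were chosen is not stated. Sources used here do not give the hour of tissue collection or the feeding state at that time.

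Lactate dehydrogenase is a tetramer that converts pyruvate and lactate into each other. The subunit made from *Ldha* prevails in fast glycolytic fibres, where pyruvate is reduced to lactate, and the subunit made from *Ldhb* prevails in the heart and in slow oxidative fibres, where lactate is oxidised. MCT4 is the carrier through which glycolytic fibres release lactate, MCT1 the carrier through which oxidative fibres take up lactate and ketone bodies. Within mitochondria *Bdh1* turns β-hydroxybutyrate into acetoacetate, and *Oxct1* activates acetoacetate with coenzyme A, the step that commits it to combustion.

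The promoters of the lactate dehydrogenase and transporter genes are shown because these 4 genes form opposing pairs in the values that follow. The 250 bases before the transcription start were taken from RefSeq (GRCm38.p6), which gave a promoter for 6 of the 7 genes. Capitals mark ACGTG and GCGTG, the core letters that hypoxia-inducible factors recognise, on either strand.
Ldha promoter, chr7:46845554-46845803, plus strand: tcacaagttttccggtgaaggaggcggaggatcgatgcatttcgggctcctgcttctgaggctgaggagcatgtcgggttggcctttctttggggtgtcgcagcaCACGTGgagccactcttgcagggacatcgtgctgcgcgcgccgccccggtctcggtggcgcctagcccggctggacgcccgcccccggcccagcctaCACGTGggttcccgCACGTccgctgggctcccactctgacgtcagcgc
Slc16a3 promoter, chr11:120948817-120949066, plus strand: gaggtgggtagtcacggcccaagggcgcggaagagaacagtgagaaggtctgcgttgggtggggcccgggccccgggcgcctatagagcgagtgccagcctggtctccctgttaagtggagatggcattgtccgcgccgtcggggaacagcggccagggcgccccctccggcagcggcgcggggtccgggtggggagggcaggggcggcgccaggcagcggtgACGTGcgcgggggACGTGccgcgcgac
Ldhb promoter, chr6:142507958-142508207, minus strand: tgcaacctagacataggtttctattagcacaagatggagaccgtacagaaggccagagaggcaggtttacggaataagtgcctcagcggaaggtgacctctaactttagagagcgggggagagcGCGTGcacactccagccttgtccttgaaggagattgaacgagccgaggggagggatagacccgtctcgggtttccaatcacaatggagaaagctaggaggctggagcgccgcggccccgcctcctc
Slc16a1 promoter, chr3:104638414-104638663, plus strand: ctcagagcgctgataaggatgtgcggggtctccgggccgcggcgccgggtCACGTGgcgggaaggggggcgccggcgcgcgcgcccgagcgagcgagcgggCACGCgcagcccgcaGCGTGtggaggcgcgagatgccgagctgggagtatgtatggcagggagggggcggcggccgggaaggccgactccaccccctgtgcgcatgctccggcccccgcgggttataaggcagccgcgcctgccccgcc
*Ldha* and *Slc16a3* held 3 and 2 separate places with these letters, *Ldhb* 1 and *Slc16a1* 3. ACGTG on either strand occurred in 16.6% and GCGTG in 28.2% of all 32851 promoter windows of the same length. CACGTG, the palindromic E-box letters that contain ACGTG, was found at 2 places in *Ldha* and at 1 place in *Slc16a1*, and in 6.02% of all windows. AAGGTCA, the half-site letters of the estrogen-related receptors, was found in none of these 4 windows and in 4.08% of all windows. The second start listed for *Ldha* had 1 place with GCGTG and no ACGTG. These are matches of letters only.

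All values are log2 signals as deposited, between 1.43 and an upper limit of 19.93, and the median of an array lay between 5.53 and 5.61. Log2 fold changes are u40Hz-stimulation group minus control group, tested with limma, with Benjamini-Hochberg (BH) adjustment of the p-values over the 22206 probe sets. No probe set, and so none of the 7 genes, passed an adjusted p under 0.05 (percent called 0%, smallest BH-adjusted p = 0.606), while 1556 probe sets had an unadjusted p under 0.05. The fast fibre genes were near the upper limit, averaging from 19.00 to 19.14 in the u40Hz-stimulation group and from 19.22 to 19.25 in the control group. Of these 12 genes 8 averaged lower and 1 higher with stimulation, and 3 stood at the upper limit in all mice. In 4 of the 12 every stimulated mouse lay below every control mouse, against 6.05% of all probe sets. An unadjusted p under 0.05 from limma was reached by 1 of them, against 7.01% of all probe sets. Stimulated mouse 4 stood apart by its adipocyte genes, 13 of 14 of which were measured. Their mean log2 signal was 13.57 there, against 6.97 and 7.44 in stimulated mice 10 and 11 and 6.58 to 7.76 among the control mice. In muscle tissue as a whole, fewer fibres of a type and less RNA per fibre cannot be told apart.

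The u40Hz-stimulation group showed lower signals of *Ldha* and *Slc16a3*, the genes of lactate formation and release, in each of its mice than in any control mouse. *Slc16a1* averaged higher, at a log2 fold change of 0.85, and *Ldhb*, *Bdh1* and *Oxct1* also averaged higher but with overlapping groups and large spread. Of the 7 genes 4 had a higher and 3 a lower mean. An unadjusted p under 0.05 was reached by *Slc16a1* upward and by *Ldha* and *Slc16a3* downward, that is, by 3 of 7, where 7.01% of all probe sets reached it. By direction, the background was 3.86% higher and 3.15% lower. None of the 3 passed after adjustment. The count of 3 turned on single mice. It was 0 without control mouse 6 or without stimulated mouse 11, 1 without control mouse 8, 2 without stimulated mouse 4 or 10, and 6 without control mouse 1. Over all probe sets 1777 had an unadjusted p under 0.05 without control mouse 1, against 1556 with all mice. Without moderation of the variance *Ldha* alone was under 0.05, with *Slc16a3* at an unadjusted p of 0.0705 and *Slc16a1* at 0.132 from limma. In that fit 1417 of all 22206 probe sets had an unadjusted p under 0.05.

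**Figure D1:**
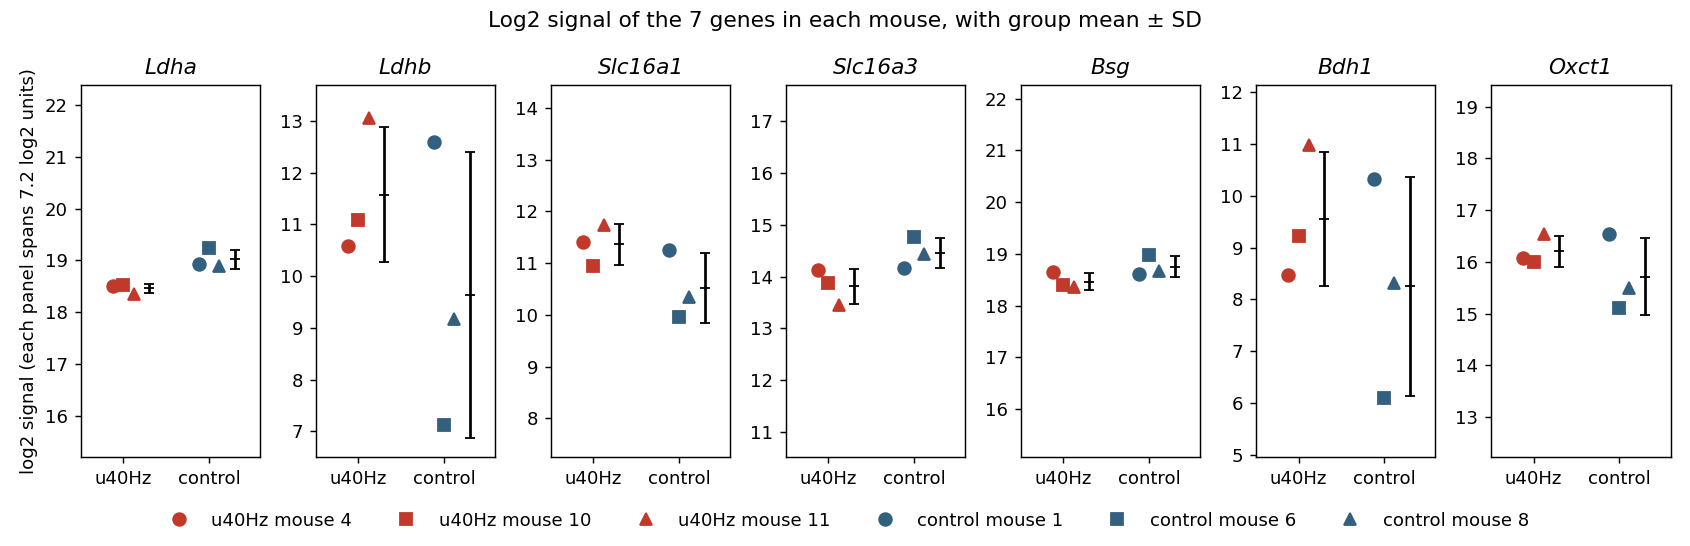
Log2 signal (vertical axis, with the same span of log2 units in every panel) of each gene in the u40Hz-stimulation group (red) and the control group (blue), 1 symbol per mouse, with the group mean and SD (n = 3) in black. The groups do not overlap for *Ldha* and *Slc16a3*, and *Ldhb* and *Bdh1* have the widest spread among mice.

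*Ldha* had log2 signals of 18.50, 18.52 and 18.35 in stimulated mice 4, 10 and 11, against 18.93, 19.23 and 18.89 in control mice 1, 6 and 8. All stimulated mice lay below all control mice, and the stimulated mice lay close together. The means were 18.46 ± 0.09 in the u40Hz-stimulation group and 19.02 ± 0.19 in the control group (SD, n = 3 each). The log2 fold change was -0.56 (standard error, SE, 0.19, 95% confidence interval from -0.99 to -0.13), a 1.47-fold lower signal, with an unadjusted p of 0.017 and a BH-adjusted p of 0.695 from limma. With 2 groups of 3, an exact permutation test cannot give a two-sided p under 0.1, which is the value *Ldha* reached. The highest value of *Ldha* lay 0.70 below the upper limit of the scale.

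*Ldhb* had log2 signals of 10.58, 11.09 and 13.06 in stimulated mice 4, 10 and 11, against 12.60, 7.13 and 9.17 in control mice 1, 6 and 8. Control mouse 1 was above stimulated mice 4 and 10, and the mice spanned 5.93 log2 units. The SD of *Ldhb* over the 6 mice was larger than that of 99.7% of the 9958 probe sets with a mean of at least 6. The group means were 11.58 ± 1.31 with u40Hz stimulation and 9.63 ± 2.76 in the control group (SD, n = 3 each), so the log2 fold change of 1.94 (SE 1.23, limma unadjusted p = 0.149 and BH-adjusted p = 0.752) was smaller than the spread among the control mice. It was 0.69 without control mouse 6 and 3.43 without control mouse 1.

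The change of one subunit gene relative to the other was taken as the within-array difference, *Ldhb* minus *Ldha*. Only its shift between mice was read, since probe sets of different genes have no common scale. It was -7.92, -7.43 and -5.29 in stimulated mice 4, 10 and 11, against -6.33, -12.10 and -9.72 in control mice 1, 6 and 8. The group difference of 2.50 toward *Ldhb* did not separate the groups, because control mouse 1 lay among the stimulated mice (two-sided exact permutation test, p = 0.3, and 0.3 after adjustment over the 2 such differences examined).

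*Slc16a3*, which encodes the lactate exporter MCT4, had log2 signals of 14.12, 13.88 and 13.45 in stimulated mice 4, 10 and 11, against 14.17, 14.76 and 14.43 in control mice 1, 6 and 8. The groups did not overlap, although stimulated mouse 4 and control mouse 1 were almost level. The log2 fold change was -0.64 (SE 0.25, 95% confidence interval from -1.20 to -0.07), a 1.55-fold lower signal, with an unadjusted p of 0.0311 and a BH-adjusted p of 0.706 from limma. *Ldha* and *Slc16a3* were thus 2 of 7 genes with every stimulated mouse below every control mouse, against 6.05% of all probe sets, and no gene of the 7 had every stimulated mouse above every control mouse, against 6.4%. Leaving out each mouse in turn, *Slc16a3* ran from -0.79 without stimulated mouse 4 to -0.45 without stimulated mouse 11. For *Ldha* the value was -0.62 when control mouse 8 was left out and -0.45 when control mouse 6 was. The unadjusted p stayed under 0.05 in 4 of 6 such fits for *Ldha*, in 2 of 6 for *Slc16a3* and in 2 of 6 for *Slc16a1*.

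*Slc16a1*, which encodes the uptake carrier MCT1, had log2 signals of 11.41, 10.95 and 11.74 in stimulated mice 4, 10 and 11, against 11.26, 9.95 and 10.34 in control mice 1, 6 and 8. Control mouse 1 was above stimulated mouse 10, and the other control mice were below all stimulated mice. The log2 fold change was 0.85 (SE 0.35, 95% confidence interval from 0.04 to 1.66), a 1.80-fold higher signal, with an unadjusted p of 0.0412 and a BH-adjusted p of 0.711 from limma. This was 0.57 without control mouse 6 and 1.22 without control mouse 1. The within-array difference *Slc16a1* minus *Slc16a3* was -2.71, -2.93 and -1.71 in stimulated mice 4, 10 and 11, against -2.91, -4.81 and -4.09 in control mice 1, 6 and 8. The shift of 1.49 toward *Slc16a1* again left control mouse 1 between the stimulated mice (two-sided exact permutation test, p = 0.2, and 0.3 after adjustment over the 2 differences).

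*Bsg*, whose protein escorts both transporters, had log2 signals of 18.65, 18.39 and 18.35 in stimulated mice 4, 10 and 11, against 18.61, 18.98 and 18.67 in control mice 1, 6 and 8. The groups overlapped through stimulated mouse 4, and the mice spanned 0.63 log2 units. The log2 fold change was -0.29 (SE 0.20, limma unadjusted p = 0.18 and BH-adjusted p = 0.772), and -0.18 without control mouse 6. Its highest value lay 0.95 below the upper limit of the scale.

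**Figure D2:**
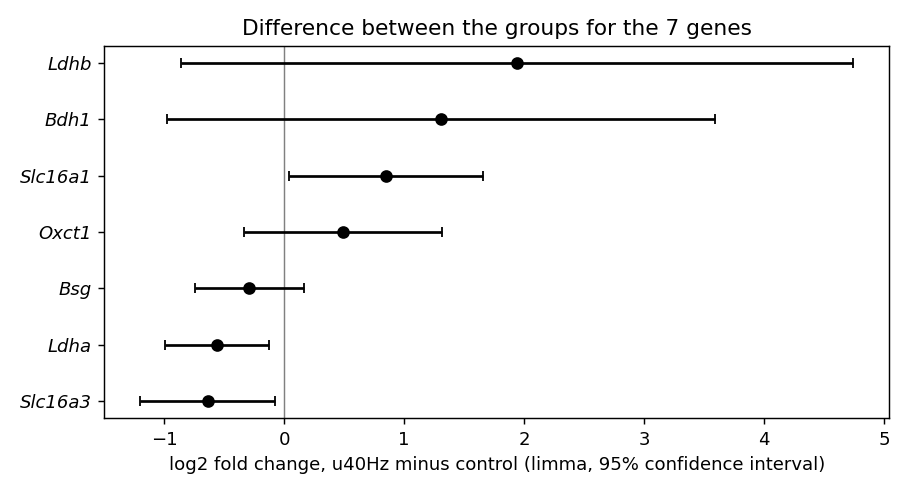
Log2 fold change of each gene (horizontal axis, u40Hz-stimulation group minus control group) with the 95% confidence interval from limma, 3 mice per group. The intervals of *Ldha*, *Slc16a3* and *Slc16a1* leave out 0 before adjustment, and those of *Ldhb* and *Bdh1* are the widest.

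The ketone body genes *Bdh1* and *Oxct1* averaged higher in the u40Hz-stimulation group, by 1.31 and 0.49 on the log2 scale, without passing even the unadjusted threshold. *Bdh1* had log2 signals of 8.47, 9.22 and 10.99 in stimulated mice 4, 10 and 11, against 10.33, 6.10 and 8.32 in control mice 1, 6 and 8. The mice spanned 4.89 log2 units, with control mouse 6 close to the median of its array and control mouse 1 above stimulated mice 4 and 10. The SE was 0.999, with an unadjusted p of 0.224 and a BH-adjusted p of 0.794 from limma. The log2 fold change of *Bdh1* was 0.24 without control mouse 6 and 2.35 without control mouse 1.

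*Oxct1* had log2 signals of 16.07, 16.00 and 16.54 in stimulated mice 4, 10 and 11, against 16.54, 15.10 and 15.50 in control mice 1, 6 and 8. The highest value was shared by stimulated mouse 11 and control mouse 1. The SE was 0.36, with an unadjusted p of 0.208 and a BH-adjusted p of 0.785 from limma. The log2 fold change was 0.18 without control mouse 6 and 0.90 without control mouse 1. The widest interval of the 4 genes with higher means was that of *Ldhb*, from -0.86 to 4.74, which holds both a lower level and a far higher one.

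Across the mice the 7 genes fell into opposing sets. Control mouse 6 had the lowest signal of *Ldhb*, *Slc16a1*, *Bdh1* and *Oxct1*, and the highest of *Ldha*, *Slc16a3* and *Bsg*. Stimulated mouse 11 had the highest signal of *Ldhb*, *Slc16a1* and *Bdh1*, shared the highest of *Oxct1* with control mouse 1, and had the lowest of *Ldha*, *Slc16a3* and *Bsg*. Control mouse 1 lay within the range of the stimulated mice for *Ldhb*, *Slc16a1*, *Bdh1*, *Oxct1* and *Bsg*. For *Ldha* and *Slc16a3* it lay above all stimulated mice, barely so for *Slc16a3* (14.17 against 14.12 in stimulated mouse 4).

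Slow fibre genes also differed between the mice. The mean of 12 slow fibre genes, contractile and calcium-handling genes such as the slow myosin *Myh7*, was 9.27, 11.32 and 11.82 in stimulated mice 4, 10 and 11, against 12.47, 7.28 and 8.88 in control mice 1, 6 and 8. *Myh7* itself was at 11.17, 14.99 and 15.03 in stimulated mice 4, 10 and 11, against 15.70, 7.99 and 10.77 in control mice 1, 6 and 8. The highest and the lowest mean thus both belonged to the control group. Of these 12 genes, 11 averaged higher with stimulation, and an unadjusted p under 0.05 was reached by none. Both counts turned on a single control mouse. Without control mouse 1 all 12 averaged higher and 10 had an unadjusted p under 0.05, at a median log2 fold change of 2.98, whereas without control mouse 6 they divided into 6 higher and 6 lower.

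*Ldhb* followed this mean over the 6 mice with Pearson r = 0.952 (exact permutation p = 0.00278, and 0.013 after adjustment over the 7 genes) and Spearman rho = 0.943 (exact permutation p = 0.0167, adjusted 0.0519). *Bdh1* had r = 0.943 (exact permutation p = 0.00417, adjusted 0.013) and rho = 0.943 (exact permutation p = 0.0167, adjusted 0.0519). *Oxct1* had r = 0.925 (exact permutation p = 0.00556, adjusted 0.013) and rho = 0.928 (exact permutation p = 0.0222, adjusted 0.0519). The share of all probe sets that follow the slow fibre mean this closely was not computed. These correlations therefore do not show that *Ldhb*, *Bdh1* and *Oxct1* stand apart from other genes. Without control mice 1 and 6, the 2 mice farthest from the median slow fibre mean, r was 0.885 for *Ldhb*, 0.880 for *Bdh1* and 0.779 for *Oxct1*. With 4 mice left, where p cannot go below 0.0417, none of these passed after adjustment (exact permutation p = 0.0417, 0.0417 and 0.167, adjusted 0.0729, 0.0729 and 0.194). At that number of mice the lost call does not tell whether the relation rests on those 2 control mice.

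For the other 4 genes no correlation passed after adjustment over the 7. *Slc16a1* had r = 0.774 and rho = 0.714 (exact permutation p = 0.0847 and 0.136, adjusted 0.0988 and 0.191). *Slc16a3* had r = -0.778 and rho = -0.657 (exact permutation p = 0.0625 and 0.175, adjusted 0.0875 and 0.204). *Bsg* had r = -0.817 and rho = -0.829 (exact permutation p = 0.0458 and 0.0583, adjusted 0.0802 and 0.102). *Ldha* had r = -0.553 and rho = -0.371 (exact permutation p = 0.228 and 0.497, adjusted 0.228 and 0.497). Without control mice 1 and 6 their r was 0.592, -0.931, -0.997 and -0.761, in the same order, over 4 mice (exact permutation p = 0.417, 0.0417, 0.0417 and 0.167). Each group has 3 mice, too few for a value within a group.

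**Figure D3:**
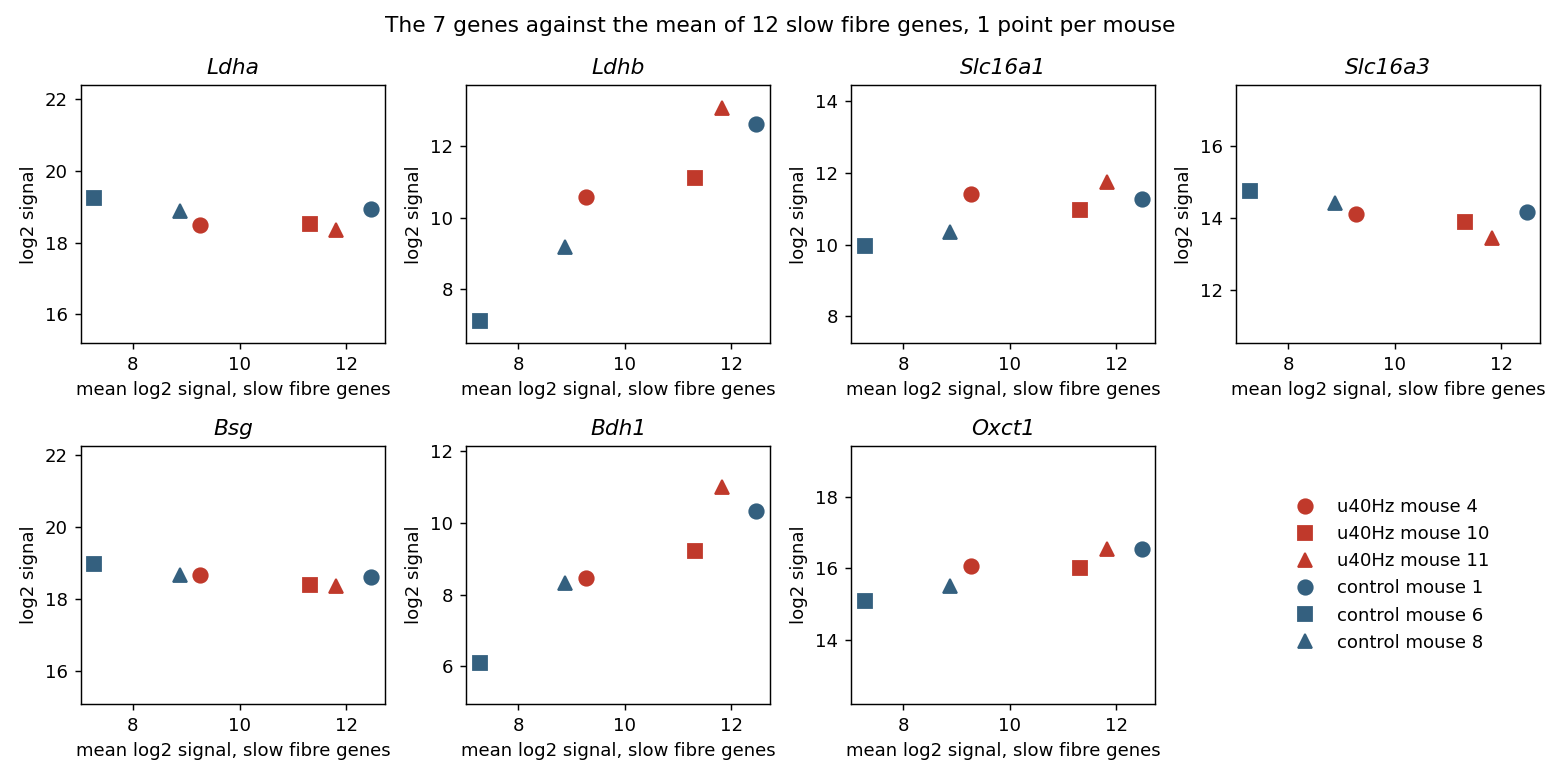
Log2 signal of each gene (vertical axis, with the same span of log2 units in every panel) against the mean log2 signal of 12 slow fibre genes (horizontal axis), 1 symbol per mouse, u40Hz-stimulation group in red and control group in blue. *Ldhb*, *Bdh1* and *Oxct1* climb along the slow fibre mean with control mouse 6 at the low end and control mouse 1 at the high end, and all stimulated mice lie below all control mice for *Ldha*.

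With the slow fibre mean as a covariate in limma, the log2 fold change was 0.71 for *Ldhb*, 0.33 for *Bdh1* and 0.18 for *Oxct1*. It was 0.59 for *Slc16a1*, -0.47 for *Slc16a3*, -0.50 for *Ldha* and -0.20 for *Bsg*. Of the 7 genes *Ldha* alone had an unadjusted p under 0.05 in that fit (unadjusted p = 0.0421 from the limma fit across all probe sets). No gene passed after adjustment (BH-adjusted p from 0.777 to 0.914). Of all 22206 probe sets, 1404 had an unadjusted p under 0.05 in the same fit. With the mean of the adipocyte genes as a covariate the values were 2.33 for *Ldhb*, 1.74 for *Bdh1*, 0.80 for *Slc16a1*, 0.53 for *Oxct1*, -0.56 for *Ldha*, -0.77 for *Slc16a3* and -0.37 for *Bsg*. The unadjusted p from limma was 0.0333 for *Ldha*, 0.0212 for *Slc16a3* and 0.0869 for *Slc16a1*, and no gene passed after adjustment. With the adipocyte covariate, 1387 of all 22206 probe sets had an unadjusted p under 0.05. This covariate mainly marks 1 mouse, with stimulated mouse 4 at 13.57 and the other mice at 6.58 to 7.76. The mean of 10 tendon genes lay between 6.85 and 7.71 in the u40Hz-stimulation group and between 7.72 and 9.11 in the control group. Of the 10 genes 9 averaged lower with stimulation. An unadjusted p under 0.05 from limma was reached by 8 of them, all lower, against 3.15% of all probe sets. That count was 5 without control mouse 8 and 7 without control mouse 6. Endothelial genes, 9 of 10 measured, averaged from 8.72 to 8.95 in the u40Hz-stimulation group and from 8.19 to 8.91 in the control group. Macrophage genes, 9 of 10 measured, averaged from 7.23 to 7.56 in the u40Hz-stimulation group and from 7.45 to 7.75 in the control group. Nerve genes, 7 of 10 measured, averaged from 6.52 to 6.96 in the u40Hz-stimulation group and from 6.03 to 7.27 in the control group. Of the red blood cell list 2 of 8 genes were measured. Neither the part of these tissues nor that of the fast fibre genes in the values of the 7 genes was tested.

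Among genes with a mean of at least 6, those whose values resembled each of the 7 most closely over the 6 arrays were named by Pearson r, as a description without a test. For *Ldhb* they were the cyclic GMP-dependent kinase *Prkg1* (r = 0.995), the sodium pump subunit *Atp1b1* (r = 0.992) and *Lgi1* (r = 0.992). For *Bdh1* they were *As3mt* (r = 0.995), *Agbl1* (r = 0.993) and *Fabp3*, the fatty acid binding protein of heart and oxidative muscle (r = 0.992). For *Oxct1* they were *Mmut*, a mitochondrial mutase of propionate breakdown (r = 0.997), *Tm6sf1* (r = 0.996) and *Tspan4* (r = 0.993). *Slc16a1* was matched most closely by the cholesterol ester hydrolase *Nceh1* (r = 0.999), *Tmem245* (r = 0.997) and the hexokinase *Hk2* (r = 0.993). *Slc16a3* was matched by *Sh3bgr* (r = 0.988), *Clu* (r = 0.985) and the AMP-activated kinase subunit *Prkab2* (r = 0.982). *Ldha* was matched by *Washc2* (r = 0.987), the proteasome subunit *Psmc3* (r = 0.986) and *Gabarapl2* (r = 0.982), and *Bsg* by *Trim28* (r = 0.997), the Z-disc gene *Ldb3* (r = 0.994) and *Mir692-3* (r = 0.993). These are the closest of 8703 candidates over 6 arrays.

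Of 9 further genes of lactate handling, 7 averaged higher and 2 lower with stimulation, at a median log2 fold change of 0.34 against 0.01 over all probe sets, and 7 of the 9 were dim, with a mean under 6. *Emb*, embigin, is the relative of basigin that escorts the transporter MCT2. It was the 1 member with an unadjusted p under 0.05, against 7.01% of all probe sets. It had log2 signals of 5.96, 6.74 and 5.40 in stimulated mice 4, 10 and 11, against 6.56, 8.01 and 7.53 in control mice 1, 6 and 8, a log2 fold change of -1.33 (limma unadjusted p = 0.0139 and BH-adjusted p = 0.695) with overlapping groups. The list's count of 1 was 0 without control mouse 6 or without stimulated mouse 11, and 2 without stimulated mouse 10. *Slc16a7*, which encodes MCT2, and the lactate receptor *Hcar1* averaged 0.87 and 1.13 higher, with stimulated mouse 4, the mouse with high adipocyte genes, at 7.43 for *Slc16a7* and 6.39 for *Hcar1*. In the other 5 mice they lay between 4.82 and 5.31 and between 2.98 and 3.63.

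Of 9 other carriers of the SLC16 family 6 averaged higher and 3 lower, with a median of 0.10 and none at an unadjusted p under 0.05. The median was 0.02 without stimulated mouse 4, and 2 genes were under 0.05 without control mouse 1. *Slc16a9*, *Slc16a10*, an aromatic amino acid carrier, and *Slc16a14* had the smallest p-values, with log2 fold changes of -0.90, -0.52 and 0.43. Of 7 further genes of ketone body metabolism 5 averaged higher and 2 lower, again with none at an unadjusted p under 0.05. Their median of 0.27 was 0.03 without stimulated mouse 4. *Acat1*, the mitochondrial thiolase that splits acetoacetyl-CoA after *Oxct1*, had log2 signals of 13.79, 13.76 and 14.08 in stimulated mice 4, 10 and 11, against 13.92, 13.14 and 13.38 in control mice 1, 6 and 8. Its log2 fold change was 0.40 (unadjusted p = 0.139 from limma), with control mouse 1 among the stimulated mice. *Aacs*, which activates acetoacetate for lipid synthesis, was at 8.95 in stimulated mouse 4 and at 5.35 and 5.29 in stimulated mice 10 and 11, against 5.00 to 5.27 in the control mice, and *Oxct2a*, the testis form of *Oxct1*, was dim in all mice (log2 signals from 2.91 to 3.53).

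Of 16 genes of pyruvate entry and fate 12 averaged higher and 4 lower, with a median of 0.37, and 2 had an unadjusted p under 0.05 in opposite directions, against 7.01% of all probe sets. That count was 0 without control mouse 8 or without stimulated mouse 4, and 5 without control mouse 1. *Pdp1*, the phosphatase that switches pyruvate dehydrogenase on, had log2 signals of 15.19, 14.84 and 15.16 in stimulated mice 4, 10 and 11, against 14.87, 13.86 and 14.19 in control mice 1, 6 and 8 (log2 fold change 0.76, limma unadjusted p = 0.0244 and BH-adjusted p = 0.695). *Pdk2*, a kinase that switches it off, had log2 signals of 16.09, 16.48 and 16.52 in stimulated mice 4, 10 and 11, against 16.81, 17.06 and 16.76 in control mice 1, 6 and 8 (log2 fold change -0.51, limma unadjusted p = 0.035 and BH-adjusted p = 0.711), without overlap. *Pdk1*, another of these kinases, averaged 0.47 higher (unadjusted p = 0.0622 from limma).

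Of 9 measured glycolytic genes 7 averaged lower and 1 higher, and *Aldoa* stood at the upper limit in all mice. *Tpi1*, triosephosphate isomerase, had log2 signals of 16.74, 16.55 and 16.61 in stimulated mice 4, 10 and 11, against 17.16, 17.53 and 16.96 in control mice 1, 6 and 8 (log2 fold change -0.58, limma unadjusted p = 0.0222 and BH-adjusted p = 0.695). The list's median was -0.17, and 3 of the 9 had every stimulated mouse below every control mouse, against 6.05% of all probe sets. The median was -0.05 without stimulated mouse 10 and -0.27 without stimulated mouse 4. *Pgam2* was at -0.36 and *Hk2*, which phosphorylates incoming glucose, at 0.61 (unadjusted p = 0.0774 and 0.0812 from limma). Of 9 genes of the shuttles that carry NADH equivalents into mitochondria 7 averaged higher, with a median of 0.12 and none at an unadjusted p under 0.05. The median was 0.02 and 5 averaged higher without stimulated mouse 11, while without control mouse 1 the median was 0.34 and 2 genes had an unadjusted p under 0.05. The dim aspartate carrier *Slc25a13* was at 0.66, malate dehydrogenase *Mdh1* at 0.64 and the aminotransferase *Got2* at 0.25.

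Of 9 measured regulators of oxidative, hypoxic and growth genes, 8 averaged higher and 1 lower, with a median of 0.62. *Ppargc1a*, the coactivator that raises oxidative genes in muscle, was the 1 member with an unadjusted p under 0.05, against 7.01% of all probe sets. It had log2 signals of 13.53, 13.55 and 13.70 in stimulated mice 4, 10 and 11, against 13.56, 12.17 and 12.66 in control mice 1, 6 and 8. Control mouse 1 was level with the stimulated mice, as it was for *Oxct1*. *Ppargc1b* and the hypoxia-inducible factor *Epas1* averaged 0.62 and 0.71 higher (unadjusted p = 0.0651 and 0.0727 from limma). None of the regulators was under 0.05 without control mouse 6 or without stimulated mouse 4 or 11, and 6 were without control mouse 1. Their median was 0.29 without control mouse 6 and 0.85 without control mouse 1. That of the pyruvate genes was 0.24 and 0.46. Without control mouse 1, 1777 of all 22206 probe sets were under 0.05.

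**Figure D4:**
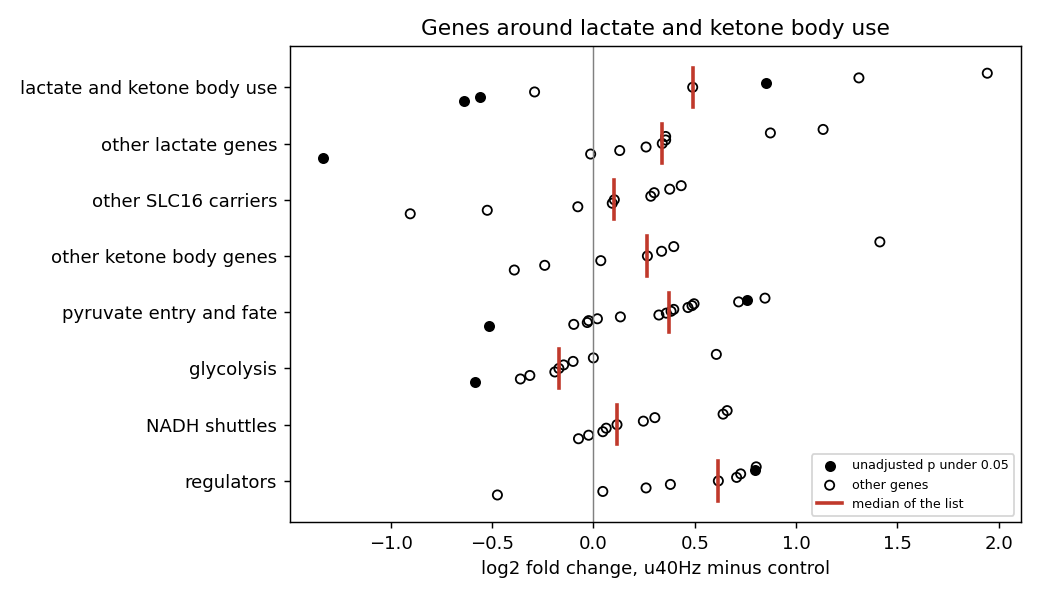
Log2 fold change of every measured gene (horizontal axis, u40Hz-stimulation group minus control group) in the 7 genes and in 7 further lists (rows), with filled points for an unadjusted p under 0.05 from limma and a red bar at the list's median. The medians lie between -0.17 for glycolysis and 0.62 for the regulators.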

How the data were processed

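Gene expression was measured with 1 Affymetrix Mouse Clariom S array per mouse, 3 per group. The log2 signals deposited by the authors, which came out of their normalization in the Transcriptome Analysis Console, were used unaltered. Sources used here give neither the summary method nor the genome build of the platform annotation. The labels and methods name the triceps brachii as the tissue, while the account of the array experiment in the study's results names the biceps brachii, and the labels were followed. No batch is given. At most 1.27% of the values of 2 arrays were equal.

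The groups were compared with lmFit and eBayes of limma 3.58.1 (R 4.3.3) on all 22206 probe sets, two-sided, with Benjamini-Hochberg adjustment. The model was run on simulated data with independent noise and known shifts, as a check of the fit and not of the differences reported here. Gene names come from the platform annotation, all 19505 of them also in RefSeq. The genes named were the 7, the 3 genes of each further list with the smallest unadjusted p, and the 3 genes most like each of the 7. The 7 genes, the lists and the tests were chosen with earlier results of these data known. Alternatives were quantile normalization, median centring, a minimum mean of 6, averaging over the probe sets of a gene, other priors, no moderation, array weights, an exact rank-sum test, covariates and leaving out each mouse. Listed genes with no named probe set were not analysed here.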

Additional observations from a re-analysis of the deposited data

How the results depend on the processing

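Every one of the 7 genes kept the direction of its difference, and none passed an adjusted p under 0.05, under all alternatives tried. The direction could change only under quantile normalization, median centring, array weights, the covariates and leaving out each mouse. The other alternatives leave the log2 fold changes of the 7 genes as they are, so they do not test direction. The same holds for the direction of the *Ldhb* minus *Ldha* and *Slc16a1* minus *Slc16a3* shifts under quantile normalization and when each mouse was left out. The number of probe sets with an unadjusted p under 0.05 was 803, against 1556, when only those with a mean of at least 6 were tested, which are fewer, and ran from 1007 (without control mouse 6) to 1838 (without stimulated mouse 10). The correlations with the slow fibre mean lost the adjusted threshold as Spearman rho (0.943 for *Ldhb*, 0.943 for *Bdh1* and 0.928 for *Oxct1*) and without control mice 1 and 6 (r of 0.885, 0.880 and 0.779), where fewer mice remain. No paired analysis was possible because the 2 groups comprised different mice and no pairing is given. The exact rank-sum test gave no p under 0.1, the smallest it allows. Precision is limited by the number of arrays, and signals near 19.93 may leave differences unmeasured.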
